A study of Mus musculus with 3 samples.

Results

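Messenger RNA levels of 71 splicing factor genes were described in a pool of mouse glomerular cells, of 21303 protein-coding genes and 39304 rows in the deposited table. The rule names genes by symbol and uses no measured value, but it and the lists below were set with earlier results of these data known. They fell into 53 core factors and 18 members of regulator families that are known for cell-type restriction. The core factors were 11 SR proteins, 20 heterogeneous nuclear ribonucleoproteins (hnRNP), 11 Sm and U1 or U2 particle proteins, 9 subunits of the SF3 complex and the 2 subunits of U2AF. The regulator families were muscleblind (Mbnl, 3 genes), Celf (6), polypyrimidine tract binding proteins (Ptbp, 3), Rbfox (3), quaking (Qk, 1) and Esrp (2).

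The pool came from 1 wild-type male C57BL/6 mouse, aged 8 weeks. Its glomeruli, the filtering tufts of the kidney, were dissociated and single-cell cDNA was made on a Fluidigm C1 instrument. Cells were typed by qPCR of marker genes, and the cDNA of 15 mesangial and 15 endothelial cells was combined and divided into 3 aliquots, each made into a library. There was 1 group and no treatment, so no condition could be compared. Every SD below is over these 3 libraries (n = 3) and measures library construction and sequencing, not mice or cells. The library totals, recovered from the values, were 9141422 to 10976563 reads. Levels are FPKM, fragments per kilobase of gene length per 1000000 reads.

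Pre-mRNA splicing removes introns in the spliceosome, which is assembled from small nuclear ribonucleoprotein particles (snRNP) on each intron. Core factors define the splice sites and build the machinery, and every cell that splices RNA is thought to need most of them. SR proteins mark exons and recruit the particles, while hnRNP proteins coat nascent RNA and often oppose exon inclusion. Regulators such as Rbfox, Celf and Esrp proteins bind short motifs near alternative exons and give neurons, muscle or epithelium their own isoforms.

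The promoters of 4 members are shown first, since they cover the contrast the levels turn on: the most abundant core factor (Srsf2), a core factor listed at 0 (Srsf4), the most abundant regulator (Qk) and a neuronal regulator listed at 0 (Rbfox3). Each is the 250 bases before a RefSeq transcription start on GRCm38.p6, written 5′ to 3′ on the gene's strand, with every CG dinucleotide in capitals. Srsf2 lies at chr11:116853095-116853344 (minus strand), Srsf4 at chr4:131873387-131873636 (plus strand), Qk at chr17:10319362-10319611 (minus strand) and Rbfox3 at chr11:118761042-118761291 (minus strand).
Srsf2: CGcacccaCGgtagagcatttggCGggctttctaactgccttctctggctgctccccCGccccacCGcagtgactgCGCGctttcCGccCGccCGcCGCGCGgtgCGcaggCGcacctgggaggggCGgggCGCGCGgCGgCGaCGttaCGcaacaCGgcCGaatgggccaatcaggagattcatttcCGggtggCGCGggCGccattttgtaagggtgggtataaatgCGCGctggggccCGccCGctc
Srsf4: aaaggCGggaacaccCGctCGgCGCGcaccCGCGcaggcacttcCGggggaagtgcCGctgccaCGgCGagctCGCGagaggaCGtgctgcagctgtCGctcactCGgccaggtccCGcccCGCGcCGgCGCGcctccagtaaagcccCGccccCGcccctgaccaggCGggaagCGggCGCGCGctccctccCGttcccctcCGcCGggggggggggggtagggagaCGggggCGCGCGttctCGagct
Qk: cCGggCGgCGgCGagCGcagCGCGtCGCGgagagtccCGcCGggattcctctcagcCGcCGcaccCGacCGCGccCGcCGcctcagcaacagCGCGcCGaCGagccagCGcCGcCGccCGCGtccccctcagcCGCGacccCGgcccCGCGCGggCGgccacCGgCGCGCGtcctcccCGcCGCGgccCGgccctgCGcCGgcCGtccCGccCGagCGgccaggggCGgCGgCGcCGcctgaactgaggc
Rbfox3: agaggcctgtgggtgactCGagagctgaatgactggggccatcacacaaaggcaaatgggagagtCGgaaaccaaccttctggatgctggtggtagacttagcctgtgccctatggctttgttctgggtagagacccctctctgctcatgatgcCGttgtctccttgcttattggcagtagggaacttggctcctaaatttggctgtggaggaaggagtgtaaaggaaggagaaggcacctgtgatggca
The window of Srsf2 held 33 CG, that of Srsf4 held 37, that of Qk 52 and that of Rbfox3 held 3. The windows used for Qk and Rbfox3 lie inside the longer GENCODE gene. Srsf4 and Srsf2 both had CG-rich windows, although their transcripts lay at opposite ends of the range of levels.

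The next pair of sequences shows how closely a core factor can resemble an annotated copy, which bears on which gene a read is given to. The first 120 bases of the coding sequence of U2af1 (chromosome 17, minus strand) are set above the same stretch of the processed pseudogene Gm10232, also on chromosome 17. Capitals mark the base that differs.
U2af1: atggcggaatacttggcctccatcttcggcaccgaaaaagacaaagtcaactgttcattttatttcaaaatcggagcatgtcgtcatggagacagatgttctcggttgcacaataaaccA
Gm10232: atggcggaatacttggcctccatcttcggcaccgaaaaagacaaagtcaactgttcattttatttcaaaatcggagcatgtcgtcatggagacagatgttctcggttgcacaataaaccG
Over the whole U2af1 coding sequence of 717 bases, 25 bases differed, an identity of 96.5%. The stretch shown differed at 1 base in 120. It was picked for having the fewest differences above 0, so it is more alike than the coding sequence as a whole.

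Most core factors were measured in every library, while the regulator families held both measured genes and genes listed at 0. At least 1 FPKM in every aliquot, called detected here, was reached by 59 of the 71 genes, against 36.4% of all protein-coding genes. Of the core factors 49 of 53 were detected, and of the regulator families 10 of 18. Another 9 genes were listed at 0 in every aliquot, against 54.6% of protein-coding genes. They were the SR proteins Srsf4 and Srsf12 and the regulators Celf3, Celf5, Celf6, Rbfox1, Rbfox3, Esrp1 and Esrp2. The remaining 3 genes, Sf3b3, Snrpf and Celf4, lay above 0 but under the limit. The detected members had a median of 69.6 FPKM, against 21.0 FPKM over all detected protein-coding genes, and 23 of the 71 were at 100 FPKM or more, against 5.32% of protein-coding genes.

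**Figure D1:**
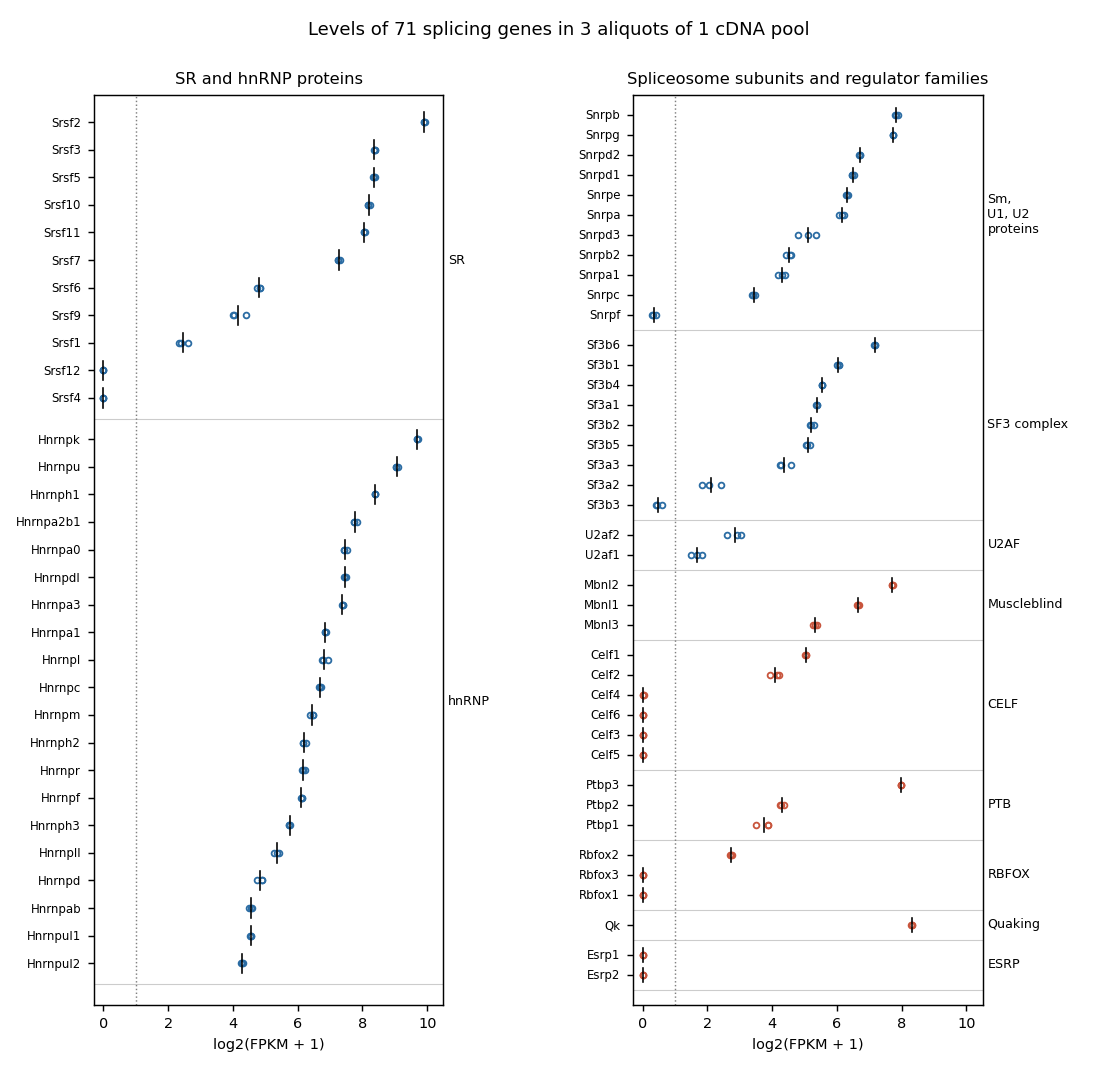
Level of each of the 71 genes by family, as log2(FPKM + 1), with an open circle for each of the 3 aliquots and a black bar at the log2 of their mean plus 1; core factors are blue and regulator families red, and the dotted line marks 1 FPKM. Circles of most genes lie on top of each other, Snrpd3, Sf3a2, Srsf9, Ptbp1 and U2af2 are spread more widely, and 9 genes sit at 0.

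Among the SR proteins, which bind exonic enhancers through their RNA recognition motifs, levels spanned the widest range in FPKM units. By the ratio of highest to lowest gene above 0, 2 other core families spanned more. Those ratios were 881 for Snrpb to Snrpf and 368 for Sf3b6 to Sf3b3, each with a lowest gene under the detection limit. Srsf2 (ENSMUSG00000034120, chromosome 11), an SR protein that acts in exon definition, was the most abundant of all members, at 980.5, 965 and 949 FPKM (965 ± 15.9, SD). It ranked 54th among all genes by mean level. Srsf3, the smallest SR protein, was at 330.5, 327 and 332 FPKM, and Srsf5 at 323, 333 and 326 FPKM. The ranges of these 2 genes overlapped, so their order is not beyond the spread. At the low end Srsf6 was at 27.6, 25.9 and 27.6 FPKM, and Srsf9 at 20.3, 15.4 and 15.0 FPKM. Srsf1, the founding member of the family, was at only 4.26, 5.11 and 4.07 FPKM (4.48 ± 0.553). The ratio of Srsf2 to Srsf1 was 217 ± 24.7 over the 3 aliquots, and 425 when each gene's reads were divided by its longest annotated transcript instead. Srsf10, Srsf11 and Srsf7 lay between, from 153 to 293 FPKM by mean. Srsf4 and Srsf12 were listed at 0.

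Every one of the 20 hnRNP genes was detected. Hnrnpk, a poly(C)-binding protein, was highest at 826, 834 and 829 FPKM (829 ± 3.91). Hnrnpu, a nuclear scaffold protein that binds RNA and chromatin, followed at 542, 529 and 523 FPKM. Hnrnph1, which binds G-rich tracts, was at 333, 336 and 336 FPKM. The 3 lowest were Hnrnpab (22.4, 23.2 and 21.6 FPKM), Hnrnpul1 (22.5, 22.1 and 22.4 FPKM) and Hnrnpul2 (17.8, 18.9 and 18.6 FPKM). Even these were well above the detection limit, and the ratio of the highest to the lowest gene was 45.0 ± 1.10. The median of the family was 94.5 FPKM, with an SD of 2.12 between aliquots. Hnrnph1 exceeded its X-linked relative Hnrnph2 by 4.62 ± 0.216 times, or 2.20 times with longest transcript lengths.

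The Sm proteins form the ring that most of the major splicing particles carry, and they act as 1 complex of 7 subunits. Their transcripts were not at like levels. Snrpb, the gene of the SmB subunit, was at 220.5, 224 and 234 FPKM, and Snrpg (SmG) at 214, 212 and 210.3 FPKM. Snrpd2 (SmD2) was at 104, 104 and 101 FPKM. Snrpd1 and Snrpe were between 78.7 and 88.8 FPKM by mean, and Snrpd3 was at 26.8, 39.5 and 33.3 FPKM. Snrpf, the gene of SmF, was at 0.254, 0.334 and 0.212 FPKM, from 2, 3 and 2 recovered reads. The ratio of Snrpb to Snrpf was 881 ± 217, or 548 with longest transcript lengths, values that rest on those 7 reads. Of the proteins particular to U1, Snrpa was at 69.6 ± 4.04 FPKM and Snrpc at 10.1, 9.47 and 9.70 FPKM. Of those of U2, Snrpb2 was at 21.8 ± 1.35 FPKM and Snrpa1 at 17.0, 20.1 and 18.6 FPKM.

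The SF3 complex clamps the U2 particle on the branch point, and its subunits also differed. Sf3b6, the subunit next to the branch point adenosine, was at 143, 142 and 145 FPKM, and Sf3b1, the large scaffold subunit, at 63.3, 65.2 and 65.3 FPKM. Sf3b4 was at 45.2, 45.8 and 45.2 FPKM. Sf3a3 was lower, at 18.1, 22.7 and 18.4 FPKM, and Sf3a2 lower again, at 4.38, 2.53 and 3.11 FPKM from 103 reads. Sf3b3 was under the detection limit in all libraries, at 0.509, 0.357 and 0.339 FPKM from 52 reads. The heterodimer U2AF, which reads the polypyrimidine tract and the AG of the 3′ splice site, was low in both subunits. U2af2 was at 6.49, 5.07 and 7.13 FPKM and U2af1 at 2.53, 1.80 and 2.21 FPKM, and these ranges did not overlap. The ratio of U2af2 to U2af1 was 2.87 ± 0.335. Both levels and their ratio carry a limit, since both genes share sequence windows with other annotated genes. The share was 27.1% of windows for U2af2, mostly with the processed pseudogene Gm5846, and 51.3% for U2af1. The part of this sharing in their low levels was not tested.

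The regulator families held some of the most abundant and all but 2 of the genes at 0. Qk (ENSMUSG00000062078, chromosome 17), a STAR-domain RNA-binding protein known in myelin, vessels and smooth muscle, was highest at 319, 318 and 312 FPKM (316 ± 3.83). Ptbp3, a paralogue of the polypyrimidine tract binding protein, was at 249, 252 and 251 FPKM. Mbnl2 was at 212, 206 and 206 FPKM, Mbnl1 at 97.2, 103 and 98.8 FPKM and Mbnl3 at 41.1, 37.6 and 39.1 FPKM. The ranges of the muscleblind genes, known for switching exons as muscle matures, were separate from each other. Mbnl2 exceeded Mbnl1 by 2.09 ± 0.0900 times and Mbnl1 exceeded Mbnl3 by 2.54 ± 0.183 times; with longest transcript lengths these ratios were 1.72 and 5.12.

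Within the Ptbp family the order was Ptbp3, Ptbp2, Ptbp1, with no overlap between neighbours. Ptbp2, the paralogue known from neurons, was at 19.6, 18.2 and 17.9 FPKM. Ptbp1, the broadly expressed founding member, was at 13.8, 10.2 and 13.6 FPKM. The ratio of Ptbp2 to Ptbp1 was 1.43, 1.78 and 1.31 in the 3 aliquots, and 2.99 with longest transcript lengths. Ptbp3 exceeded Ptbp2 by 13.5 ± 0.751 times, or 5.19 times with longest transcript lengths. Ptbp1 carries a limit: 24.2% of its 50-base windows also occur in another gene, and exons of other genes cover 20.7% of its exon bases.

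The Celf and Rbfox families each had their widely expressed members measured and the others at or next to 0. Celf1 was at 32.2, 32.1 and 31.4 FPKM and Celf2 at 17.5, 16.7 and 14.3 FPKM. Celf4 had a single recovered read, in aliquot 1 (0.0276 FPKM). Celf3 and Celf5, which are known mainly from brain, were listed at 0, and so was Celf6. Rbfox2 was at 5.75, 5.48 and 5.64 FPKM, while its neuronal and muscle relatives Rbfox1 and Rbfox3 were listed at 0. Qk was 56.3 ± 1.45 times as high as Rbfox2. Both Esrp genes, which direct epithelial isoforms, were listed at 0. By the sub-lists, 7 of 7 broadly expressed regulators were detected, both of Mbnl3 and Ptbp3, 1 of 7 neuronal or muscle regulators (Ptbp2) and 0 of 2 epithelial ones. The neuronal or muscle list includes Celf6, and its genes need not be confined to those tissues. Over all protein-coding genes, 36.4% were detected and 54.6% were listed at 0, and these short lists were not tested against those shares.

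As a class, core factors had a median of 68.4 FPKM (SD of the median over aliquots 1.79) and regulator families one of 9.08 FPKM (SD 1.07). On the log2(FPKM + 1) scale the difference of medians was 2.81, 3.00 and 2.75 in the 3 aliquots. From the means it was 2.87, with an SD over aliquots of 0.13. Because 7 of the 18 regulators were listed at 0, leaving out all members at 0 reduced the difference to 1.10, and leaving out the 7 broadly expressed regulators raised it to 6.12. The 2 classes are lists of genes, not replicates, so no test was made between them. Core factors took 1.05% of all reads and the regulator families 0.423%, and Qk alone accounted for 54921 of the 129254 regulator reads.

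**Figure D2:**
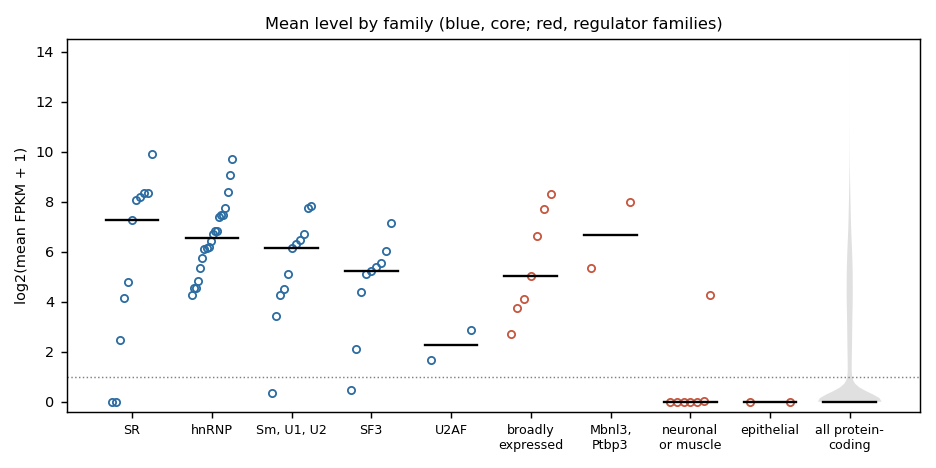
Mean level of each gene as log2(mean FPKM + 1), grouped by core family (blue), by regulator sub-list (red) and, as a grey outline, over all 21303 protein-coding genes, with a black bar at each median and a dotted line at 1 FPKM. All but 1 of the neuronal or muscle genes and both epithelial genes lie at or next to 0, while the 7 broadly expressed regulators overlap the range of the core families.

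Markers of cell types were measured in the same pool, and their relation to the regulators at 0 was not tested. All 8 mesangial and all 8 endothelial markers were detected, with summed levels of 8930 to 9360 and 2229 to 2280 FPKM. Podocyte markers were also measured: 5 of 6 were detected, with sums of 273 to 289 FPKM, and their part in the levels above was not tested. All 6 tubular epithelial markers (among them Cdh1 and Epcam), all 5 leukocyte markers and all 6 neuronal markers, which include Rbfox3 itself, were listed at 0. So were 54.6% of all protein-coding genes. In a mixed pool, fewer expressing cells and less RNA per cell cannot be told apart, nor can the mesangial and endothelial shares of a transcript. A value of 0 is the deposited value and not proof of absence. By counting error alone, 0 reads allow up to 3, which is 0.328, 0.288 and 0.273 reads per 1000000 in aliquots 1, 2 and 3.

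The core factors at or near 0 were set beside the regulators at 0 by how much of their sequence they share with other annotated genes. Srsf4 (ENSMUSG00000028911, chr4:131873617-131901706, plus strand) shared 65.4% of its 50-base windows, all with Gm12992, a transcript on the opposite strand. Exons of Gm12992 cover 1532 of the 3561 exon bases of Srsf4 (43.0%), and Gm12992 itself was listed at 4.56, 4.29 and 4.63 FPKM. Snrpf (ENSMUSG00000020018, chr10:93583029-93589706, minus strand) shared 89.5% of its windows and had 85.4% of its exon bases covered, by Ccdc38 (567 bases) and 4933408J17Rik (168 bases) on the opposite strand. Both of these neighbours were listed at 0. U2af1 (ENSMUSG00000061613, chr17:31647081-31658892, minus strand) shared 51.3% of its windows, mostly with the pseudogene Gm10232 shown above, which was listed at 0. Windows were compared on both strands, so an overlap on the opposite strand can enter both measures. Windows came from protein-coding transcripts only and exon bases from all transcripts, so the measures can differ.

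The regulators at 0 differed in this respect. Rbfox1 and Rbfox3 shared no window and had no covered exon base. Esrp1 shared none and had 2.01% covered, Celf3 and Celf6 shared 0.712% and 0.279%, and Esrp2 and Celf5 shared 6.85% and 8.42%. Srsf12, an SR-related repressor, shared none and had none covered, so the SR proteins at 0 were unlike each other. Members at high levels can share as much: Hnrnpf shared 61.9% of its windows and was at 68.4 FPKM, and Hnrnpa1 shared 46.7% and was at 114 FPKM. Members at low levels can share little: Sf3b3 shared 1.18% and Srsf1 0.928%. Over the classes, 21 of 53 core factors and 1 of 18 regulators (Ptbp1) shared at least 10% of their windows. The same share was not computed over all protein-coding genes, so these counts have no background. Exons of other genes overlapped 30 of the 71 members (42.3%), against 29.4% of protein-coding genes. How the authors' counting treated reads shared between genes, and whether it used strand, is not given in the sources used here, and the part of sharing in these levels was not tested. With all members left out that shared or were covered by at least 10%, 32 core factors and 17 regulators remained, 8 of the 9 genes at 0 among them.

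**Figure D3:**
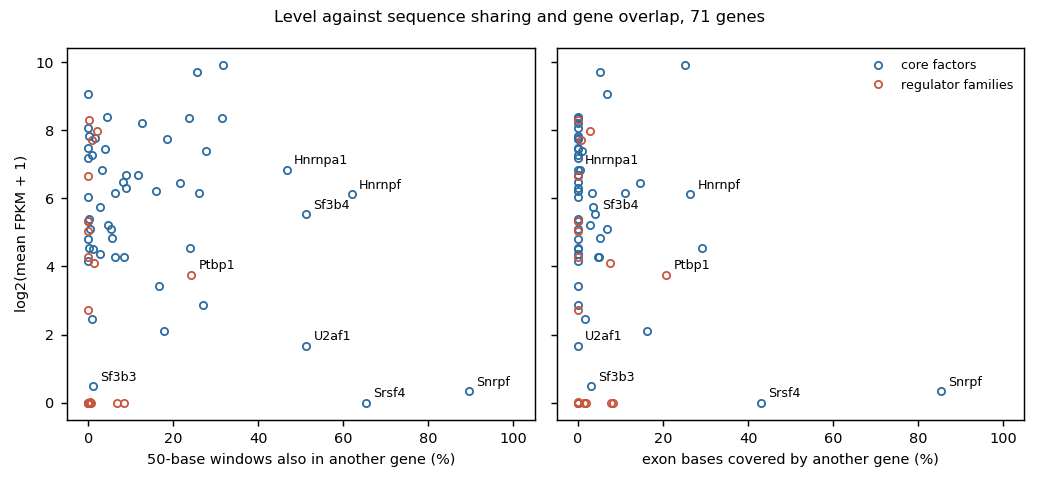
Level of each of the 71 genes, as log2(mean FPKM + 1), against the percentage of its 50-base windows found in another gene (left) and the percentage of its exon bases covered by another gene (right), with core factors in blue and regulator families in red. Snrpf lies at the lower right of both panels. Srsf4 lies at the lower right of the left panel and at 43.0% in the right panel. The regulators at 0 lie at the lower left, and Hnrnpf and Hnrnpa1 combine high sharing in the left panel with high levels.

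Promoter composition was compared for the 59 members found in the RefSeq promoter table, taking for each gene the window with most CG. Core factors had a median of 21.5 CG in 250 bases (46 genes) and regulators above 0 one of 23.5 (8 genes). Regulators listed at 0 had a median of 11 (5 genes: Rbfox3 with 3, Rbfox1 with 6, Celf3 with 11, Celf5 with 17 and Celf6 with 22). The windows of 4 of these 5 lie inside the GENCODE gene, downstream of its outermost start, as do 24 of all 59. The SR proteins at 0 held 37 (Srsf4) and 19 (Srsf12). Protein-coding genes in general had medians of 18 where detected and 5 where listed at 0. At least 20 CG were held by 31 of the 59 members (52.5%), against 42.8% of detected protein-coding genes, 27.3% of protein-coding genes and 19.7% of all genes in the table. CG reads the same on both strands, and its number is a description of the window, not of binding or methylation.

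**Figure D4:**
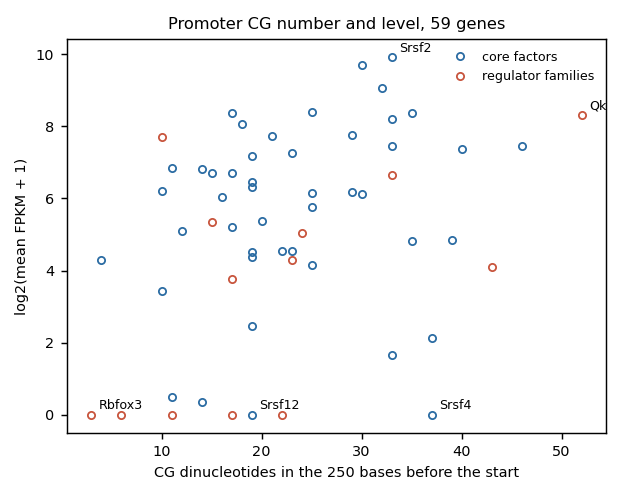
Level of 59 genes, as log2(mean FPKM + 1), against the number of CG dinucleotides in the 250 bases before a RefSeq start, with core factors in blue and regulator families in red. Srsf4 sits at 0 among CG-rich windows with 37, Rbfox3 at 0 with 3, and levels at any CG number are widely spread.

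Reads recovered from the FPKM steps allowed the spread between aliquots to be set against counting error. Of the 60 members with at least 30 reads, a chi-square test of the 3 read numbers called 0 at a Benjamini-Hochberg adjusted p under 0.05, against 1.09% of all 9120 genes tested. At an unadjusted p under 0.05 the chi-square test passed 13 of the 60, against 11.4% of all genes. The nearest to the threshold were Hnrnpl, at 121, 107 and 108 FPKM (chi-square test, adjusted p = 0.0608), and Snrpd3 (chi-square test, adjusted p = 0.0641). Aliquot 1 was highest for Hnrnpl and lowest for Snrpd3. The call of Snrpd3 turned on 2 settings. Without aliquot 3 the chi-square test called it (adjusted p = 0.0274). Its reads were taken at an implied length of 604 bases, against a longest transcript of 3036, and may be too low by a whole factor. With the largest multiple of each implied length that fits in the mean transcript length, an alternative chosen after seeing the data, the chi-square test called it too (adjusted p = 0.00018), the only one of 60 members so called, against 1.26% of 9138 genes. The tested members had a median of 3036 reads, against 981 over all genes tested, which narrows their counting error. The median coefficient of variation of the detected members was 2.85%, against 4.42% over detected protein-coding genes, with extremes of 0.447% (Srsf11) and 28.3% (Sf3a2). Within families, 55 pairs of neighbours in the order of means were compared and the ranges of 7 overlapped; the others were separate in these libraries.

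**Figure D5:**
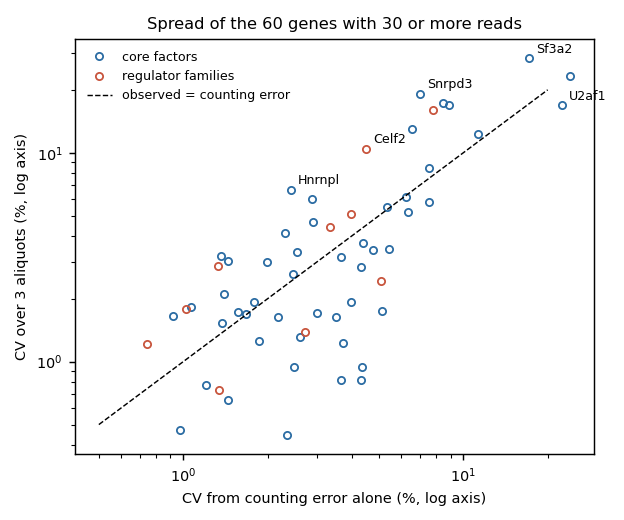
Coefficient of variation over 3 aliquots against that from counting error alone, both in percent on log axes, for the 60 members with at least 30 recovered reads; the dashed line marks equality. Members scatter on both sides of the line, Hnrnpl, Snrpd3 and Celf2 lie above it, and genes with few reads such as Sf3a2 and U2af1 lie at the upper right.

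Other genes of the splicing pathway were counted in the same way. Of 87 genes in 9 further lists, 71 were detected, 13 were listed at 0 and 3 lay between (Prpf19, Dhx16 and Rbpms2). Among all protein-coding genes 36.4% were detected and 54.6% were listed at 0. All 13 tri-snRNP and U5 genes, all 6 branch point and 3′ site genes and all 4 exon junction genes were detected, with Snrnp27 (56.2 ± 3.32 FPKM), Puf60 (58.9 ± 2.85 FPKM) and Eif4a3 (391 ± 18.6 FPKM) highest. Detected genes were 10 of 11 in the other snRNP list (highest Lsm7, at 0 Snrnp25), 6 of 7 in the Prp19 complex (highest Bcas2) and 6 of 8 among helicases and step factors (highest Cwc22, at 0 Dhx38). Of the SR-related genes and kinases 12 of 13 were detected, with Clk2 at 0. Their highest was Clk1, a kinase that phosphorylates SR proteins, at 1392, 1411 and 1403 FPKM, above every one of the 71 members. Of the RNA-binding regulators 13 of 16 were detected, with Tial1 highest and Rbm24 and Rbm38 at 0. Of 9 neural or muscle genes, only Rbm20 was detected (3.95 ± 0.294 FPKM). Elavl2, Elavl3, Elavl4, Khdrbs2, Nova1, Nova2, Srrm3 and Srrm4 were listed at 0.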

How the data were processed

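One table of FPKM values, deposited by the authors, was used, with 1 column for each of 3 aliquots; columns were matched by title. The submitters' processing notes name the build GRCm38 and the tools TopHat2 (2.0.12) and HTSeq (0.6.1). The settings, annotation release, gene lengths and strandedness were not given in the sources used here. Symbols, exons and transcripts came from GENCODE M21 and the name table (37607 identifiers with a symbol, 1697 without), and promoters from RefSeq.

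Read numbers were recovered from the steps of low FPKM values, with library totals of 9141422, 10427635 and 10976563. For each of 11142 genes above 0, the smallest whole length that made all 3 numbers whole within 0.0001 reads was taken, or its multiple within 1 base of the mean transcript length (374 genes). Together these reads made up 96.7% of the totals. An unresolved common factor makes some read numbers too low and their chi-square statistics too small. For 25 of 62 members this length matched the average annotated transcript within 1 base. Lengths far below the longest transcript, as for Snrpa (249 against 1690), Sf3b5 (733 against 3841), Snrpd3 (604 against 3036) and Srsf11 (672 against 3106), leave the reads uncertain. The chi-square test (scipy 1.17.1, at least 30 reads, Benjamini-Hochberg adjustment over all genes) was tested on simulated data.

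Detection was set at 1 FPKM in every aliquot and a pseudocount of 1 was used on log scales. Named were every regulator, the 3 highest and 3 lowest genes above 0 of each core family, and all genes at 0; others by range, or where sharing or spread was described after their values were seen. Members and lists were chosen with earlier results of these data known. Genes sharing 50-base windows or exons with others are uncertain.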

Additional observations from a re-analysis of the deposited data

How the results depend on the processing

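Of the alternative values for the 6 main results, 30 stayed the same and 16 moved. A count was the same within a fixed factor of the main count, a median or difference within its SD over aliquots. That factor was wide, since 13 genes at 0 against 9 counted as the same. Leaving out 1 aliquot can hardly move a median or difference beyond an SD taken over those aliquots. These labels therefore describe the settings and are not a test of robustness. Only the difference of medians could change direction, and it did not. Detection counts ran from 56 (5 FPKM) to 60 (30 reads) of 71, and counts at 0 from 9 to 10 of 71. With pseudogenes that match the symbols added, 13 genes were at 0, and with members of shared or covered sequence left out, 8 (of 32 core factors and 17 regulators). Leaving out 1 aliquot in turn, chi-square calls ranged from 0 to 1, and with the largest multiple of the implied lengths there was 1; both times it was Snrpd3. The median of core factors was 36.2 FPKM with longest transcript lengths, and 74.3 as reads per 1000000 with no length; in place of the median, the back-transformed mean of log2(FPKM + 1) was 48.4. The median of the regulator families was 5.34 FPKM and 27.3 reads per 1000000 in the same order, and 31.9 FPKM with members at 0 left out; their back-transformed mean was 7.61. The difference of medians (log2) was 2.55 with longest transcript lengths, 1.53 as reads per 1000000, 1.10 without members at 0, 2.52 as a difference of means, 3.01 with a pseudocount of 0.1, 1.91 with only Snrp, Sf3 and U2af genes as core, and 6.12 without the broadly expressed regulators. Leaving out members with shared or covered sequence, chosen after seeing the data, gave 2.84. No paired analysis was possible because there is 1 group. The values with longest transcript lengths and per 1000000 reads use recovered reads, which may be too low by a whole factor for some genes. The causes of these shifts were not tested beyond what each setting removes. One mouse and 30 pooled cells limit every level to this pool.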

Other observations

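Several processed pseudogenes that share 50-base windows with members carried values of their own. Gm8186, a copy of Snrpg on chromosome 17, was at 28.1, 31.1 and 27.4 FPKM (28.8 ± 1.96), while Snrpg was at 212 ± 1.74 FPKM. Gm12696, a copy of Hnrnpc, was at 11.2, 8.05 and 10.1 FPKM. Gm6397 and Gm13369, copies of Hnrnpa3, were at 2.93 ± 0.401 and 1.32 ± 0.0893 FPKM. Gm7964, a copy of Hnrnpk, was at 1.01 ± 0.424 FPKM. The highest of these, Gm8186, had an FPKM above that of Snrpb2 (21.8 ± 1.35 FPKM) and Snrpc (9.77 ± 0.339 FPKM). Gm8186 (chr17:26098991-26099221) is far shorter than the implied lengths of Snrpb2 (1161 bases) and Snrpc (3464 bases). The order therefore depends on the division by length and was not compared in reads. Reads of the parent gene and of its copy cannot be told apart from these values.

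Neighbouring genes on the opposite strand were measured for several members. Mfsd11 (50.2 ± 2.06 FPKM) and Mettl23 (14.4 ± 0.135 FPKM) overlap exons of Srsf2, Phykpl (4.31 ± 0.181 FPKM) overlaps Hnrnpab, and Plekhj1 (10.2 ± 0.850 FPKM) overlaps Sf3a2. Cox20, which overlaps Hnrnpu, was listed at 0.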
